A study of Mus musculus with 23 samples.

Results

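Irf1, Ifi203 and Usp18, which are induced by interferons, and B2m, the light chain shared by MHC class I molecules, were followed across chemically induced mouse skin tumours that did or did not express a TGF-beta transgene. They were taken by their gene symbols in the array's annotation, which gave 4 genes on 5 probes of 6795 genes on 9596 probes. The genes were chosen from earlier results in which they lay on the positive side (defined below) in papillomas. Their papilloma values are therefore described here and not tested. The carcinoma results were also known when the genes were chosen, so the carcinoma p-values are not independent of that choice. A further 4 probes are annotated to a member together with another gene and were not used.

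Each of 23 arrays compared a bigenic tumour (genotype K5rTA tetOTGFbeta) with a monogenic tumour (K5rTA alone). In the bigenic mice a transactivator driven by the keratin 5 promoter, which is active in basal keratinocytes, switches on TGF-beta when doxycycline is given. All mice were FVB with an age label of 7 to 12 weeks, all tumours were raised with 100 µg DMBA followed by 5 µg TPA 2 times a week for 20 weeks, and all tumour-bearing mice ate chow with 1 g/kg doxycycline for 48 h, so the monogenic controls carried the transactivator, the carcinogen and the drug too. Papillomas, the benign stage, appeared at weeks 12 to 14 and squamous cell carcinomas at weeks 25 to 35. The 14 papilloma arrays covered 11 pairs of tumours (8 bigenic, 7 monogenic) and the 9 carcinoma arrays covered 7 pairs (5 bigenic, 4 monogenic). Pairs are named below by their class and array numbers, and a pair with 2 numbers was hybridised in both dye orientations.

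The values are log2 ratios between the tumours of a pair. Which dye is the numerator is not given in the sources used here, so a value has a side and not a direction. If Cy5 was divided by Cy3, a positive value stands for more RNA in the bigenic tumour. With the dyes the other way round it stands for less. All arrays were turned to the same side, so that comparisons between genes, pairs and classes do not depend on it. Arrays held values for 6729 to 9573 probes, and the SD over probes ran from 0.289 to 1.20, widest on array papilloma 2. Nothing in the labels says which tumours came from separate animals. Some pairs also share a tumour, and the main fit treats every pair as independent. The p-values therefore measure only the spread between these pairs. Tgfb1 itself was positive on all 5 papilloma arrays that measured it, from 0.26 to 1.97, each with the bigenic tumour in Cy3. Among the carcinoma arrays it was positive on 2 with the bigenic tumour in Cy5 (0.39 and 0.94). It was negative on 3 carcinoma arrays with that tumour in Cy3 (-0.88, -0.15 and -0.17).

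Interferons bind receptors on nearly every cell and signal through JAK kinases to the nucleus. Type I interferons act mainly on genes with an interferon-stimulated response element (ISRE), and interferon gamma on genes with a gamma-activated sequence (GAS). Irf1 encodes a transcription factor that is itself induced through a GAS and then activates further genes, including those of antigen presentation. Ifi203 belongs to the Ifi200 family of nuclear proteins related to DNA sensors. Usp18 encodes the protease that removes the ubiquitin-like modifier ISG15 from proteins and dampens signalling at the type I receptor. B2m pairs with class I heavy chains and with some class I-like molecules, and without it they do not reach the cell surface.

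Promoter stretches are shown because they hold the response elements by which these genes are read as interferon targets. They come from the RefSeq promoter table (build GRCm38.p6, 250 bases before to 50 after a start), in which 3 of the 4 genes were found. The build behind the array's own annotation is not given in the sources used here. Irf1 (chr11:53770014-53778374) has 2 promoters in the table. The first holds a GAS core (TTCNNNGAA), in capitals, at positions -90 to -82 from the start, in chr11:53769874-53769982 on the plus strand.
Irf1: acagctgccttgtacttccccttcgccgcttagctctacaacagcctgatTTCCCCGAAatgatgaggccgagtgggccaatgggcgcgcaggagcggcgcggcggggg
Ifi203 (chr1:173920400-173942866) also has 2 promoters, and the second holds an ISRE core (GAAA, any 2 bases, GAAA), in capitals, at positions -35 to -26 from its start, in chr1:173942493-173942577 on the minus strand.
Ifi203: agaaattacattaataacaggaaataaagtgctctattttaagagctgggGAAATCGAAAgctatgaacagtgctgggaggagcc
B2m (chr2:122147687-122153082) holds an ISRE core and, downstream of it on the other strand, an NF-kappaB consensus match, both in capitals, in chr2:122147498-122147607 on the plus strand.
B2m: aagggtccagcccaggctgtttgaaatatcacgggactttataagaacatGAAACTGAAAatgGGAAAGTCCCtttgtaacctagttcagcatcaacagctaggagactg
Searched on both strands, the ISRE core was present in 3.44% of the 32851 promoters of the table, the GAS core in 8.3% and the NF-kappaB consensus in 8.46%. The first Irf1 promoter and the first Ifi203 promoter also hold an NF-kappaB consensus match, and the second Irf1 promoter holds none of the 3 motifs. The Irf1 and B2m windows thus carry different elements, GAS in the former and ISRE in the latter. Usp18 lies at chr6:121245906-121270917.

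In papillomas all 4 genes lay mostly on the positive side, and in carcinomas Irf1 and Ifi203 lay mostly on the negative side while Usp18 and B2m were split. The fitted papilloma values, means over pairs weighted by the number of arrays, were 0.51 for Irf1, 0.52 for Ifi203, 0.57 for Usp18 and 0.68 for B2m, equal to ratios of 1.42, 1.44, 1.48 and 1.61. The fitted carcinoma values were -0.55, -0.35, 0.18 and -0.34. Of the 4 genes, 3 had a negative fitted value in carcinomas, B2m among them with a side that turned when 1 tumour was left out, and so did 44.7% of the 3457 genes with a positive papilloma value. None of the 4 passed an adjusted p of 0.05 in carcinomas, where 6 genes, or 0.0936% of those tested, passed (limma, Benjamini-Hochberg). Over all genes, 4 passed in papillomas, or 0.0624%, and nothing is read from that share for the members, whose papilloma values chose them.

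**Figure D1:**
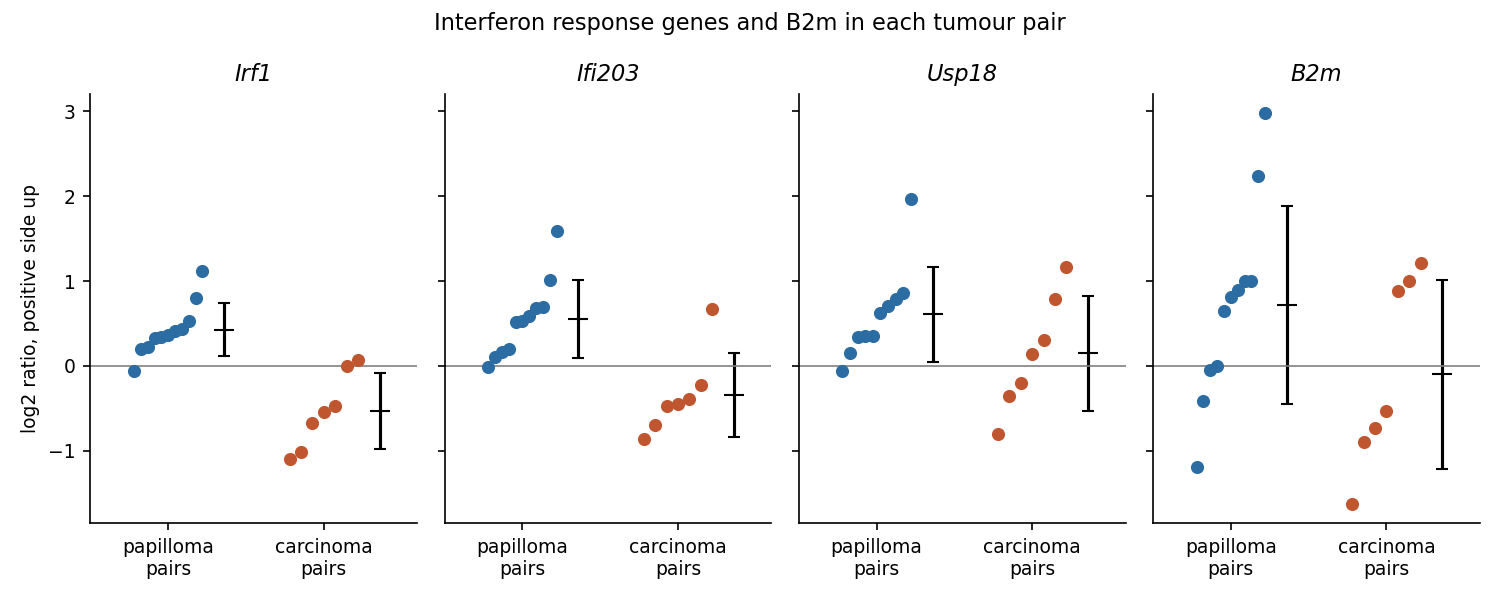
Log2 ratio of each of the 4 genes in every papilloma pair (11, blue; 10 for Usp18) and carcinoma pair (7, orange), with mean and SD in black. Irf1 separates the classes most, with 10 of 11 papilloma pairs above every carcinoma pair, and B2m has the widest scatter in both classes.

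Irf1 had the narrowest papilloma values. They ran from -0.06 (papilloma 2) through a median of 0.37 to 1.11 (papilloma 5 and 8), with a mean of 0.43 ± 0.31 (SD, n = 11 pairs) and 10 of 11 pairs positive. The lone negative value is near 0 and belongs to papilloma 2, the array with the widest ratios. The same array gave the highest papilloma values of Ifi203 and Usp18 and the lowest of B2m. In carcinomas Irf1 was -1.09 in carcinoma 4, -1.01 in carcinoma 8, -0.68 in carcinoma 6 and 7, -0.54 in carcinoma 5 and 9, -0.47 in carcinoma 3, -0.01 in carcinoma 1 and 0.07 in carcinoma 2. The values were clearly negative in 5 pairs and near 0 in 2. The carcinoma mean was -0.53 ± 0.45 (SD, n = 7 pairs), and the fitted value of -0.55 ± 0.151 (SE) had an adjusted p of 0.154 over all genes tested (limma). With a gene-specific dye term it was -0.36 (adjusted p = 0.706), and with the bigenic tumour in Cy3 only it was -0.65 (adjusted p = 0.0292), and these are the highest and lowest adjusted p over the alternatives tried. The carcinoma values reached into the papilloma range in only 2 pairs, and in 75 of the 77 possible comparisons of a papilloma with a carcinoma pair the papilloma pair was higher. The fitted difference, carcinoma minus papilloma, was -1.06 ± 0.194 (SE), a description since it holds the papilloma values on which the gene was chosen.

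Ifi203 resembled Irf1 in its class means but not pair by pair. In papillomas it ran from -0.01 (papilloma 10) through a median of 0.53 to 1.59 (papilloma 2), with a mean of 0.55 ± 0.46 (SD, n = 11 pairs) and 10 pairs positive. Its highest values, 1.59 and 1.01, came from papilloma 2 and papilloma 12, which share the bigenic tumour 1762D, and the 2 pairs of bigenic tumour 2145C gave its lowest, -0.01 and 0.10. Values of pairs that share a tumour are not independent. In carcinomas Ifi203 was -0.86 in carcinoma 3, -0.69 in carcinoma 2, -0.47 in carcinoma 5 and 9, -0.45 in carcinoma 4, -0.39 in carcinoma 8, -0.23 in carcinoma 6 and 7 and 0.67 in carcinoma 1. All but carcinoma 1 were negative, and those 6 lay below every papilloma pair. The carcinoma mean was -0.35 ± 0.49 (SD, n = 7 pairs), with a fitted value of -0.35 ± 0.167 (SE) and an adjusted p of 0.458 (limma). Without carcinoma 1 the fitted value was -0.47 (adjusted p = 0.248), without monogenic tumour 242 it was -0.22 (adjusted p = 0.999), and with the better-measured probe alone it was -0.64 (adjusted p = 0.16), the last 2 being the highest and lowest adjusted p over the alternatives tried. The difference between the classes was -0.87 ± 0.214 (SE), again as a description.

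The pair of probes for Ifi203 differed in how far they separated the classes. The second probe had a papilloma mean of 0.66 ± 0.39 (SD, n = 11 pairs, 10 positive) and a carcinoma mean of -0.56 ± 0.61 (SD, n = 7 pairs, 1 positive). The first probe had a papilloma mean of 0.46 ± 0.77 (SD, n = 9 pairs, 7 positive) and a carcinoma mean of -0.14 ± 0.56 (SD, n = 7 pairs, 3 positive). On the papilloma arrays with both probes the signs matched on 7 of 10, and on the carcinoma arrays on 5 of 9. The second probe was higher on 7 of the 10 papilloma arrays and on 1 of the 9 carcinoma arrays. The Ifi200 genes are close relatives, and which of them each probe can bind was not tested.

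**Figure D2:**
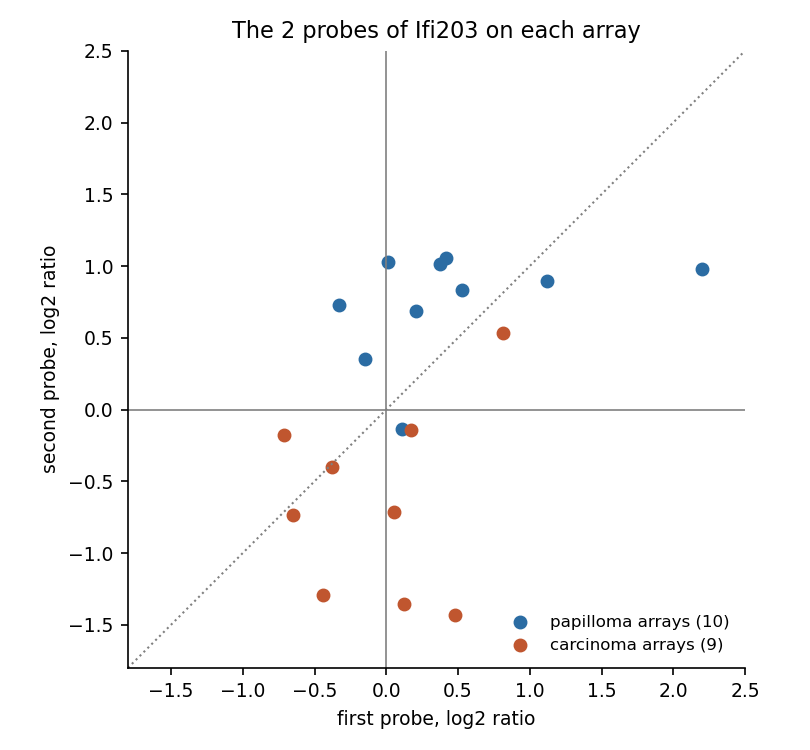
Log2 ratio of the first Ifi203 probe (x axis) against the second (y axis) on the 10 papilloma and 9 carcinoma arrays that measured both, with the line of equal values dotted. Papilloma arrays lie high on the second probe and spread along the first, and 8 of 9 carcinoma arrays lie below 0 on the second.

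Usp18 was positive in papillomas but did not turn negative in carcinomas. It was measured in 10 of the 11 papilloma pairs and ran from -0.06 (papilloma 9) through a median of 0.49 to 1.96 (papilloma 2), with a mean of 0.61 ± 0.56 (SD, n = 10 pairs) and 9 positive. The value of papilloma 2 stands far above the next, 0.86 in papilloma 4 and 7. In carcinomas Usp18 was -0.80 in carcinoma 1, -0.36 in carcinoma 4, -0.20 in carcinoma 5 and 9, 0.14 in carcinoma 8, 0.30 in carcinoma 3, 0.79 in carcinoma 6 and 7 and 1.16 in carcinoma 2. These values straddled 0 and overlapped most of the papilloma range. The mean was 0.15 ± 0.68 (SD, n = 7 pairs) and the fitted value 0.18 ± 0.205 (SE, adjusted p = 0.815, limma), and without bigenic tumour 237 the fitted value was -0.02. The difference between the classes was -0.39 ± 0.277 (SE), and the papilloma pair was higher in 50 of 70 comparisons. It was -0.17 without bigenic tumour 236, -0.21 without 1762D, -0.58 without 237, -0.25 without monogenic tumour 257A and -0.25 without array papilloma 2.

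B2m spread over more than any other member. In papillomas it ran from -1.19 (papilloma 2) through a median of 0.81 to 2.98 (papilloma 1), with a mean of 0.72 ± 1.17 (SD, n = 11 pairs) and 8 positive. The 2 lowest pairs, papilloma 2 at -1.19 and papilloma 12 at -0.41, share bigenic tumour 1762D, the tumour whose pairs were highest for Ifi203. In carcinomas B2m was -1.62 in carcinoma 5 and 9, -0.89 in carcinoma 4, -0.73 in carcinoma 6 and 7, -0.53 in carcinoma 8, 0.88 in carcinoma 2, 1.00 in carcinoma 1 and 1.22 in carcinoma 3. The values fell into a negative set of 4 pairs and a positive set of 3, with none between -0.53 and 0.88. The mean was -0.10 ± 1.11 (SD, n = 7 pairs) and the fitted value -0.34 ± 0.357 (SE, adjusted p = 0.794, limma). That value has no settled side, since without bigenic tumour 236 it was 0.18 and without monogenic tumour 257A it was 0.12, and with the bigenic tumour in Cy3 only it was -0.07. The difference between the classes was -1.02 ± 0.458 (SE), with the papilloma pair higher in 52 of 77 comparisons, and it was -0.50 without 236 and -0.56 without 257A.

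The split of B2m followed which carcinomas were compared. Bigenic tumours 236 and 237 were each hybridised against monogenic tumours 241A and 257A, which makes 4 linked pairs, and B2m was negative in all 4 (mean -0.94) and positive in the other 3 (mean 1.03). Irf1 was also lower in the linked pairs, where all 4 were negative with a mean of -0.83, against -0.13 in the other 3. Ifi203 averaged -0.38 in the linked pairs, and of the other 3 pairs 2 lay below all linked pairs (-0.86 and -0.69) and 1 above (0.67). Usp18 averaged 0.09 and 0.22, with both sides of 0 in each set. This division was looked at after the values were seen and has no test. The linked set holds only 2 tumours of each genotype, so its 4 pairs are not independent of each other. Of the other 3 pairs, carcinoma 2 and carcinoma 3 share monogenic tumour 242, so these are not independent either.

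Of the 47 other interferon-induced genes, 43 had a lower mean in the linked pairs than in the other 3, beside 55.2% of all 6413 genes. Cxcl9, a T cell chemokine, averaged -2.67 in the linked pairs and 0.44 in the 2 others that measured it. Tgtp1, an interferon-induced GTPase, averaged -1.95 and 0.94, and Iigp1 of the same class -1.31 and 0.61. Of the guanylate-binding and p47 GTPases, Gbp2 averaged -1.47 in the linked pairs and 1.44 in the other 3, and Igtp -1.32 and 0.36. Gbp2 and Igtp were chosen after their values were seen. Tap1, which carries peptides to class I molecules, averaged -0.68 and 0.46. The gap was not seen in every gene: Ifi207 averaged -0.71 and -0.70, Trim25 0.48 and 0.07, and Irf7 0.58 and 1.09. The mean over the 47 genes was negative in all 4 linked pairs, from -0.60 to -0.01, and positive in the other 3, from 0.14 to 0.75.

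Markers of most cell types moved with this split, those of leukocytes among them. The mean of the 19 macrophage markers lay between -0.51 and 0.13 in the linked pairs and between 0.71 and 1.35 in the other 3. MHC class II genes lay between -0.18 and 0.04 and between 0.60 and 0.97, and lymphocyte markers between -0.09 and 0.11 and between 0.23 and 0.80. The mean of 7 pan-leukocyte genes overlapped between the sets, at -0.20 to 0.27 and 0.19 to 1.31. Neutrophil markers lay between -1.10 and -0.10 in the linked pairs and between 0.18 and 0.77 in the others. Endothelial markers lay between -0.41 and 0.26 and between 0.29 and 0.81. Fibroblast markers overlapped, at -0.37 to 0.50 and 0.42 to 0.94. Skeletal muscle genes followed too, at -1.26 to 0.10 in the linked pairs and 1.19 to 2.46 in the others, the widest gap of these lists. The keratinocyte mean went the other way, from 0.14 to 0.37 in the linked pairs and from -0.30 to -0.08 in the others. That mean holds Krt13, fitted at 3.01 in carcinomas, while 8 of 11 keratinocyte markers were negative there and Krt5 averaged -0.32 in the linked pairs and -0.65 in the others. Their part in the values of B2m, Irf1 and the other interferon genes was not tested. In bulk tumour RNA, fewer cells of a type and less RNA per cell cannot be told apart.

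**Figure D3:**
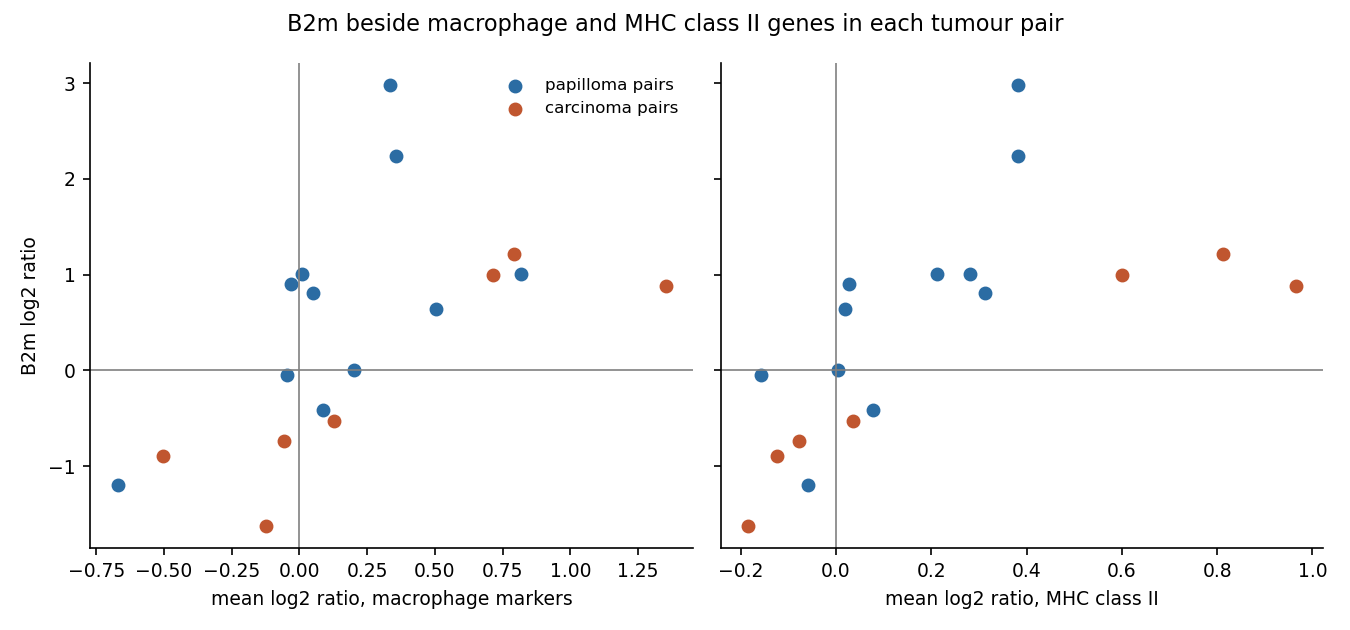
B2m log2 ratio (y axis) against the mean log2 ratio of 19 macrophage markers (left) and 8 MHC class II genes (right) in each papilloma (blue) and carcinoma (orange) pair. The 3 carcinoma pairs with positive B2m lie at 0.71 to 1.35 for macrophage markers and 0.60 to 0.97 for class II genes, to the right of the 4 with negative B2m.

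Across the 18 pairs the genes most like each member were sought among 6209 genes (6096 for Usp18) sharing at least 15 pairs with it, by Pearson's r, as a description. The pairs share tumours and arrays, so they are not independent points. B2m was most like Cd74, the invariant chain of MHC class II molecules, at r = 0.80 over 18 pairs (0.92 within papillomas and 0.84 within carcinomas), followed by Cdr2 (0.78) and the epidermal lipoxygenase Alox12e (0.74, 17 pairs). Ifi203 was most like its own family member Ifi207 (0.88, 18 pairs), then Zfp512b (0.84, 16 pairs) and Gem (0.84). Irf1 was most like Uhrf1bp1l (0.88), Slc34a2 (0.85) and the kinase gene Src (0.82), each over 18 pairs. Usp18 was most like Prtg (0.86, 15 pairs), Gramd1b (0.84) and Sema4c (0.83).

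No member was among the genes named above as most like another member. Those genes were picked for the highest r, so a lower r between members follows from that choice. Irf1 and Ifi203 had an r of 0.53 over all pairs, but within the classes it was -0.40 in papillomas and 0.27 in carcinomas. Irf1 and B2m had 0.46 over all pairs, 0.06 in papillomas and 0.67 in carcinomas. Ifi203 and Usp18 had 0.31 over all pairs, 0.66 in papillomas and -0.61 in carcinomas. Irf1 and Usp18 had 0.23 over all pairs and -0.64 in papillomas, Usp18 and B2m -0.07 and -0.55, and Ifi203 and B2m 0.06 and -0.49. Of the 6 couples of members, only Ifi203 with Usp18 had an r above 0.1 within papillomas.

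For 5 pairs both dye orientations were hybridised, which shows how far a value follows the dye. Irf1 kept its sign in 5 of 5 pairs: with the bigenic tumour in Cy3 and then in Cy5 it was 0.27 and 0.79 in papilloma 4 and 7, 0.81 and 1.42 in papilloma 5 and 8, 0.66 and 0.95 in papilloma 3 and 6, -1.02 and -0.33 in carcinoma 6 and 7, and -0.99 and -0.10 in carcinoma 5 and 9. It was higher in the Cy5 orientation in all 5, by a mean of 0.60 ± 0.22 (SD, n = 5), with a two-sided exact sign-flip permutation p of 0.0625, the smallest that 5 pairs allow. Ifi203 was lower in the Cy5 orientation in all 5, by a mean of -0.59 ± 0.35 (SD, n = 5; exact permutation p = 0.0625), and kept its sign in 3. Ifi203 went from 0.70 to -0.38 in papilloma 4 and 7, where only its second probe was measured. That probe was lower in the Cy5 orientation in all 5 pairs. The first probe was higher in Cy5 in carcinoma 6 and 7 (0.174 to 0.477) and in carcinoma 5 and 9 (0.055 to 0.126). In papilloma 3 and 6 the first probe was lower in Cy5 (0.418 to 0.21), so the shift was not shared by the probes in every pair. B2m kept its sign in 4 of 5 pairs, with a mean gap of -0.13 ± 0.40 (SD, n = 5; exact permutation p = 0.5625). Usp18 had both orientations in 3 pairs and kept its sign in 2, and was higher in Cy5 in all 3 (exact permutation p = 0.25, the smallest possible). In the fit over all genes the dye effect is the shift from the midpoint of the orientations to the Cy5 orientation, a smaller scale than the gaps above. It was 0.30 ± 0.090 for Irf1 (SE, adjusted p = 0.12, limma) and -0.25 ± 0.109 for Ifi203 (adjusted p = 0.262), and 27 genes, or 0.421%, passed. On 18 of the 23 arrays the bigenic tumour was in Cy3, so a dye effect does not cancel in the class means.

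**Figure D4:**
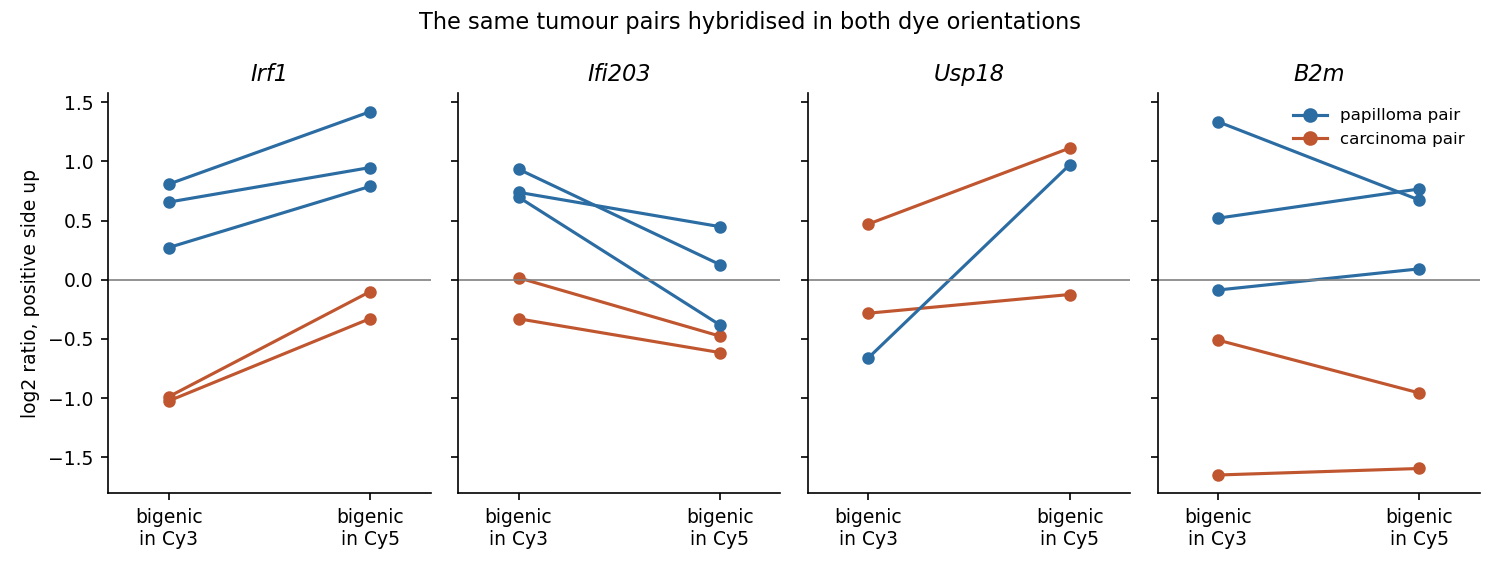
Log2 ratio of each gene in the pairs hybridised both ways, with the bigenic tumour in Cy3 (left point) and in Cy5 (right point), papilloma pairs in blue and carcinoma pairs in orange. Irf1 shifts up in all 5 pairs and Ifi203 down in all 5, while the classes stay on opposite sides of 0 for Irf1.

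The arrays fell into 3 ranges of experiment number, which the labels do not call batches. Papilloma arrays lay in all of them (5, 4 and 5), and Irf1 averaged 0.31, 0.52 and 0.70 within them. Ifi203 averaged 0.49, 0.72 and 0.40, and B2m 0.74, 0.64 and 0.66. Usp18 averaged 0.56 (5 arrays), 0.05 (3 arrays, 1 positive) and 1.10 (3 arrays). These are the values on which the genes were chosen, and Usp18 was near 0 in the second range. Carcinoma arrays lay in the second range (8) except carcinoma 1, and within the second range Irf1 averaged 0.52 in papillomas and -0.62 in carcinomas, Ifi203 0.72 and -0.47, Usp18 0.05 and 0.30, and B2m 0.64 and -0.50.

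The linked carcinoma pairs close a loop, since each of the bigenic tumours was set against each of the monogenic ones, and the signed sum around it should be 0 if ratios add up. The sum was 0.89 for Irf1, 0.13 for Ifi203, 0.80 for Usp18 and -0.94 for B2m, beside a median size of 0.95 over 6082 genes. With the bigenic tumour in Cy3 on every array the sums were 0.09, 0.52, 0.40 and -0.74, beside a median size of 0.86 over 5800 genes. Each sum adds the errors of 4 pairs, while a fitted class value averages over pairs, so their sizes cannot be set against each other. In the sum over all arrays 2 pairs were averaged over both dye orientations and the others had the bigenic tumour in Cy3 only. A dye effect therefore does not cancel in that sum.

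The wider interferon response was described by gene lists without the members. Of 47 other interferon-induced genes tested, 41 were positive in papillomas with a median of 0.15, against 3457 of all 6413 genes and a median of 0.02. In carcinomas 24 of the 47 were positive with a median of 0.00, against 3147 of 6413 and -0.01. With a gene-specific dye term 32 of the 47 were positive in papillomas (median 0.11), and with equal spread on every array 36 (median 0.13). None of the 47 passed the threshold in either class (limma; 5 had an unadjusted p under 0.05 in papillomas and 7 in carcinomas). Over all 6413 genes, 628 in papillomas and 694 in carcinomas had an unadjusted p under 0.05 (limma). Counts of this kind for the lists below have the same background. The mean of the 47 genes was positive in 10 of 11 papilloma pairs, from -0.00 to 0.52, highest in papilloma 2. Within the list, 15 of 16 genes with an ISRE core in their promoter and 21 of 25 without were positive in papillomas, so both kinds lay on that side.

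**Figure D5:**
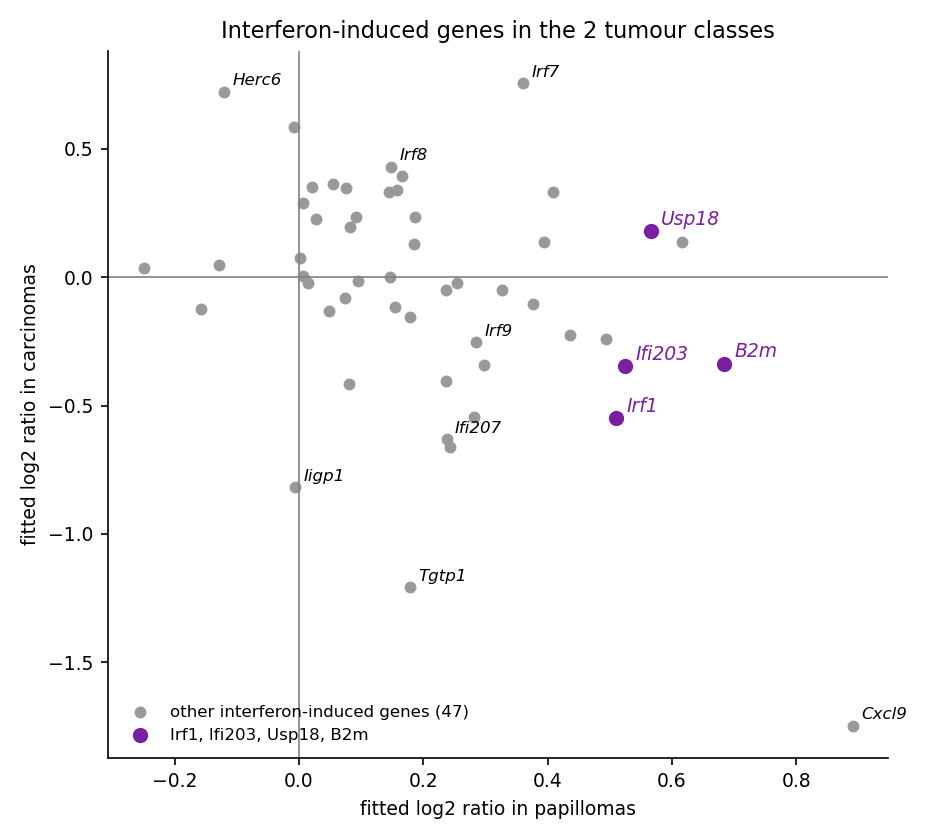
Fitted log2 ratio in papillomas (x axis) against carcinomas (y axis) for 47 other interferon-induced genes (grey) and the 4 members (purple). The grey points lie mostly right of 0, 41 of 47, and are spread above and below 0 on the y axis, 24 of 47 above.

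Among ligands and receptors, 4 receptor genes were tested and 3 were positive in papillomas with a median of 0.08, against 1 in carcinomas with a median of -0.05. Ifnar1 and Ifnar2, the chains of the type I receptor, were at -0.23 and -0.06 in carcinomas, and the interferon gamma receptor chains Ifngr1 and Ifngr2 at 0.20 and -0.04. None passed the threshold in either class (limma, 0 of 4 with an unadjusted p under 0.05).

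Of 18 signalling and IRF family genes, 12 were positive in papillomas (median 0.10) and 8 in carcinomas (median -0.03), and none passed in either class (limma). An unadjusted p under 0.05 was found for 0 and 4 of the 18, beside 628 and 694 of all 6413 genes (limma). Of 7 other IRF genes, 3 had the signs of Irf1, positive in papillomas and negative in carcinomas, 3 were positive in both and 1 negative in both. Irf2, a factor that can oppose Irf1, was at 0.16 in papillomas and -0.28 in carcinomas, and Irf9, a factor of the type I response, at 0.28 and -0.25. Irf7, which amplifies type I interferon production, was at 0.36 and 0.76, and Irf8, a factor of myeloid cells, at 0.15 and 0.43 (adjusted p = 0.365 in carcinomas, limma). Irf5 was at 0.13 and -0.24, Irf4 at 0.23 and 0.36, and Irf3 at -0.07 and -0.28. The phosphatase gene Ptpn2, a brake on JAK signalling, was at -0.37 in carcinomas (adjusted p = 0.376, limma).

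Among interferon-induced genes the smallest p-values in carcinomas belonged to Tgtp1 (-1.21 ± 0.371 SE, adjusted p = 0.204), Ifi207 (-0.63 ± 0.217, adjusted p = 0.264), Cxcl9 (-1.75 ± 0.616, adjusted p = 0.27) and Iigp1 (-0.82 ± 0.317, adjusted p = 0.318), by limma. Ifi207, the relative of Ifi203, was positive in 10 of 11 papilloma pairs (fitted 0.24) and negative in 6 of 7 carcinoma pairs. Cxcl9 was positive in 9 of 11 papilloma pairs, and its fitted value of 0.89 there rests on papilloma 5 and 8, at 7.21, while its median was 0.19. Another Ifi200 gene, Ifi209, was positive in 5 of 11 papilloma pairs and 5 of 7 carcinoma pairs.

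Of 11 genes listed under class I and antigen processing, 7 were positive in papillomas (median 0.14) and 5 in carcinomas (median -0.09), and none passed in either class (limma; 2 and 1 with an unadjusted p under 0.05). The list counts H2-Ke6 (-0.05 in papillomas and 0.28 in carcinomas), which lies in the MHC region but does not encode a class I or antigen processing protein. Tap1, Psmb8 and Psmb10 also stand among the 47 interferon-induced genes. Tap2, the partner of Tap1 in peptide transport, was positive in 11 of 11 papilloma pairs (fitted 0.27 ± 0.102 SE) and at 0.03 in carcinomas. Tap1 was at 0.30 in papillomas and -0.34 in carcinomas, the immunoproteasome gene Psmb10 at 0.08 and -0.42 (adjusted p = 0.345 in carcinomas, limma), and the peptide trimmer Erap1 at 0.14 and -0.27. Classical class I heavy chains were not analysed here. Of 6 genes listed as class I-like, 6 were positive in papillomas (median 0.26) and 4 in carcinomas (median 0.05). In either class 0 passed the threshold, and 2 and 0 had an unadjusted p under 0.05 (limma). Which of these 6, Azgp1 and Procr among them, pair with B2m was not tested. They include Mr1, which presents vitamin metabolites (0.36 in papillomas, 9 of 11 pairs positive), Cd1d1, which presents lipids (0.23, 10 of 11), and Fcgrt, the neonatal Fc receptor (0.37, 7 of 11).

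MHC class II genes, which do not pair with B2m, were positive in 7 of 8 in both classes, with medians of 0.13 in papillomas and 0.22 in carcinomas, and none passed (limma; 0 and 1 with an unadjusted p under 0.05). H2-Eb1 was at 0.08 and 0.34, and Cd74 at 0.33 and 0.31. By pair, the class II mean was at 0.60 to 0.97 in the 3 carcinoma pairs with positive B2m and at -0.18 to 0.04 in the 4 with negative B2m.

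Around Usp18, 4 genes of the ISG15 cycle were tested, and 1 was positive in papillomas (median -0.11) and 2 in carcinomas (median 0.11), with 0 past the threshold (limma, 0 with an unadjusted p under 0.05 in either class). Herc6, the mouse ligase that attaches ISG15, was at -0.12 in papillomas and 0.72 in carcinomas, the latter with 3 of 7 pairs positive, a median of -0.06 and 4.2 in carcinoma 3, and Trim25, a ligase of antiviral signalling, at 0.01 and 0.29. The proteases Usp2 and Usp5 were at -0.25 and -0.10 in papillomas, the side opposite to Usp18. Isg15 itself was not analysed here.

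Markers of the cells a skin tumour can hold were set beside the members over each class. In papillomas 18 of 19 macrophage markers were positive (median 0.24), 13 of 16 lymphocyte markers (0.09), 6 of 8 neutrophil markers (0.30), 5 of 7 pan-leukocyte genes (0.04) and 16 of 17 skeletal muscle genes (0.51), while 0 of 11 keratinocyte markers were (-0.30). With a dye term the papilloma medians were 0.10 for macrophage, -0.05 for lymphocyte, 0.29 for neutrophil, -0.08 for pan-leukocyte, 0.34 for skeletal muscle and -0.12 for keratinocyte genes. In carcinomas the macrophage median was 0.50 with 16 of 19 positive, and the keratinocyte median -0.25 with 3 of 11 positive. Papilloma 2, where B2m was lowest and Ifi203 and Usp18 highest, had the lowest macrophage mean of the papilloma pairs (-0.67) and the highest lymphocyte mean (0.93). Positive in papillomas were also 2 of 6 fibroblast genes (median -0.18), 3 of 7 endothelial genes (-0.05) and 14 of 26 TGF-beta pathway genes (0.09). The single marker past the threshold was Chil3, made by alternatively activated macrophages, in carcinomas (-3.53 ± 0.504 SE, adjusted p = 0.00303, limma). The basal keratin gene Krt5 was at -0.30 in papillomas and -0.38 in carcinomas. Ratios carry no absolute level, so the labelled tissue could not be checked against marker levels. The part of these cell types in the members' values was not tested.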

How the data were processed

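Tumours were homogenised in TRIzol and their RNA, after a column step, was coupled to Cy3 or Cy5 through aminoallyl groups, per the labels' protocols. The authors deposited 1 ratio per probe and array, taken here as log2. For the log base, numerator dye, scanner, background correction and normalization: not given in the sources used here. No counts exist, so precision is limited by the number of arrays.

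Ratios were turned so that the bigenic tumour is on the same side on every array, and each array was centred on its median. Of 9596 probes, 7486 carried 1 gene symbol and were used. Probes of a gene were averaged, then the arrays of each pair of extracts. Genes with at least 8 papilloma and 5 carcinoma pairs (6413) were fitted with limma 3.58.1 (R 4.3.3), 1 mean per class, weighted by arrays, with Benjamini-Hochberg adjustment over all 6413. The fit was also run on simulated data with independent noise on every array. That simulation held no shared tumours and no dye effects, so it cannot show how the fit handles them. A dye term, scalings, tumour blocks, filters, experiment-number ranges and left-out tumours were tried.

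The members, lists and alternatives were chosen with earlier results of these data known. Named were the members, their relatives, per list up to 4 genes of smallest carcinoma p, the 3 genes most like each member, Tgfb1 and defining markers. Replicate numbers pair no samples across classes.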

Additional observations from a re-analysis of the deposited data

Results flagged for a closer look

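For 61 genes with 4 to 10 measured carcinoma pairs, the carcinoma pairs were searched for outliers, and papilloma pairs were not. Of these genes, 3 had a carcinoma pair far from the others, where chance alone flags about 1 in 20 groups. Ifi203 was at 0.672 in carcinoma 1, against -0.2303 in the nearest other pair, a gap of 0.587 of the whole range. Herc6, the ISG15 ligase, was at 4.196 in carcinoma 3, against 1.1785 in the nearest. Azgp1, a class I-like gene, was at 2.679 in carcinoma 1, against 0.6635 in the nearest.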

How the results depend on the processing

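Over 39 alternatives (38 for Usp18) all 4 genes kept their papilloma side, on which they were chosen, and Irf1 and Ifi203 their carcinoma side. Leaving out a papilloma tumour cannot move a carcinoma value, nor the reverse, and some filters leave a member's values as they were. Such alternatives could not turn a side. Irf1 in carcinomas passed the threshold with Cy3 arrays only (-0.6458). With a tumour or array left out, Usp18 in carcinomas ran from -0.0169 (without bigenic tumour 237) to 0.398, and B2m from -0.7329 to 0.1843 (without 236), with 0.1234 without monogenic tumour 257A. The carcinoma median of interferon-induced genes was -0.0244 with a dye term, -0.0318 with equal spread and -0.0033 with quantile normalization, and that of class I genes 0.032 with a dye term. Genes past the threshold (limma) numbered 4 in papillomas, 6 in carcinomas and 23 for their difference. In papillomas the count was 43 with equal spread, 47 with quantile normalization, 2 without weights, 8 and 9 with the monogenic tumour or linked group as a random block, 0 over genes measured in all pairs (483 with an unadjusted p under 0.05), 15 with Cy3 arrays, 16 with the experiment range as a term, 1 without the first range, and 0 to 7 with a tumour or array left out. In carcinomas it was 11 with quantile normalization, 44 without weights, 20 and 19 with those blocks, 1 over all pairs, 0 with classes apart (499 unadjusted), 209 with Cy3 arrays, 0 with the range term (672 unadjusted), 3 without the first range, 14 with the best-measured probe, and 3 to 95 with a tumour left out (3 without 241A, 49 without 236, 95 without 257A). For the difference it was 43 with a dye term, 42 with equal spread, 50 with quantile normalization, 9 with the range term, 3 without the first range and 5 to 36 with a tumour left out. The array number as a replicate block gave 5, of which 3 were among the 23, and the numbers pair nothing across classes.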
